A study of Equus caballus with 26 samples.

Results

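The interleukin-10 family groups the cytokines IL-10, IL-19 and IL-22 with receptor chains that several of them share. Of the 7 listed genes IL22RA2, IL10, IL10RA, IL10RB, IL19, IL22 and IL22RA1, 6 had a probe on the array, among 24415 gene names in all, and no probe was found by name for IL19. The genes were chosen by their names, and their levels before and after the ride in both sets of horses formed part of that choice, so the changes of these genes between the time points are given as a description, without a test.

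Whole blood mRNA was measured on 26 single-colour arrays from 23 Arabian or half-breed Arabian horses entered in 160 km endurance competitions. Blood was drawn from the jugular vein at rest (T0) or just after the ride had ended (T1). The experimental set held 3 geldings, each sampled at both T0 and T1. The validation set held 7 horses sampled at T0 only (3 females and 4 geldings) and 13 other horses sampled at T1 only (3 females and 10 geldings). The labels used here give no drug, diet, genotype or age per horse, and the ride itself was the only exposure that they record. Per the study's methods, horses were also fed between the stages of the ride. The study recruited its horses at 3 French competitions, and which of these each horse entered was not analysed here. In the validation set the T0 and T1 animals were different horses. Per the study's methods, most of the T0 horses of the validation cohort were later eliminated at a veterinary check, whereas its T1 horses all finished. The labels do not give the outcome of each of the 7, and the ride and this difference between the horses cannot be told apart there. Whole blood mixes all circulating cell types. Fewer cells of a type and less RNA per cell therefore cannot be told apart in any of the values.

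IL-10 is the principal anti-inflammatory cytokine of myeloid cells. It binds a receptor made of IL10RA, the ligand-binding chain that is largely restricted to leukocytes, and IL10RB, a widely expressed chain that also serves IL-22, IL-26 and the type III interferons. The receptor signals through JAK1, TYK2 and STAT3. IL-22 is made by lymphoid cells and acts on epithelial tissues through IL22RA1 paired with IL10RB. IL22RA2 encodes a soluble receptor without a membrane anchor, the IL-22 binding protein, which captures IL-22 and blocks its action, and which dendritic cells and eosinophils of the gut are known to make.

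Every level rests on 60-base probes. The brightest probe of each member is printed from 5′ to 3′ because the results below rest on these 6 sequences. Capitals mark the stretch that all probes of the same gene share where the gene had several overlapping ones (6 probes for IL10, 5 for IL22), and the genes with all lower-case letters had a single probe.
IL22RA2: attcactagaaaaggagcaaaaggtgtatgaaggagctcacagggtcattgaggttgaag
IL22RA1: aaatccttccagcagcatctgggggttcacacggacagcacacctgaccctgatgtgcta
IL22: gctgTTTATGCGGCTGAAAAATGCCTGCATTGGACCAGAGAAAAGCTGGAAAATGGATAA
IL10: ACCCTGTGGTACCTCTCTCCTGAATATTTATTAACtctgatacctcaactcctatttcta
IL10RA: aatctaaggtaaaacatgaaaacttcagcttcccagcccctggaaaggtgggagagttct
IL10RB: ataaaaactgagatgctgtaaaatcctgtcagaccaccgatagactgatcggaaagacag

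The array annotation, on the equCab1 horse build that the file headers name, placed the IL22RA2 probe on the minus strand of chr10:77273397-77274665. That interval covers 1269 bases for a 60-base probe, so by these coordinates the probe joined parts of the transcript that lie apart in the genome. The IL10RA probe likewise covered 334 bases, at chr7:22572144-22572477 on the plus strand. The other probes were contiguous, with IL10 at chr5:2996302-2996361 (minus strand), IL10RB at chr26:11940559-11940618 (minus strand), IL22 at chr6:80408046-80408105 (minus strand) and IL22RA1 at chr2:29312832-29312891 (plus strand). Their exon and untranslated region status was not analysed here. IL10RA, IL10RB, IL22 and IL22RA2 stood on the array under locus numbers, and IL10RB was named through the study's additional files alone.

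IL22RA2, the decoy receptor of IL-22, was not well above background at T0 in the 3 experimental horses and in 5 of the 7 validation horses. On every T1 array of both sets it gave a signal well above background. Levels are log2 of the processed signal minus the 75th percentile of the same array, so that 0 is a bright probe by the standard of that array. In the experimental set horses 2, 32 and 41 read -5.56, -7.26 and -6.70 at T0, where the probe was not well above background on any of the 3 arrays. The same horses read 2.48, -0.96 and 0.89 at T1, with a clear signal on all 3 arrays. All 3 horses thus moved in the same direction and the T0 and T1 arrays did not overlap. No T0 array gave a measured level. For each T0 array the higher of the probe's own signal and the dimmest signal well above background was therefore taken. Against these the difference was 145.1-fold on this scale, and some other processing gave a smaller change, as described below. The change as measured was 7.31 ± 0.39 (log2, SE, n = 3 horses). Each SE of a change given here is limma's moderated one, drawn in part from the spread of all genes. It is therefore not the spread between the horses for that gene alone.

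The 7 validation arrays at T0 ran from -8.31 through a median of -7.60 to -2.22, and the probe was well above background on 2 of them. The 13 T1 arrays ran from -3.12 through a median of 0.61 to 3.61, all well above background. Of the T0 arrays, 6 lay under every T1 array, and the exception was horse 47 at -2.22, which lay above horse 21 at T1 (-3.12). The difference of the means was 7.02 ± 0.83 (log2, SE, 7 and 13 horses), or 130.2-fold, with the T0 mean resting on 5 unmeasured arrays. Without horse 47 it was 7.75. Horse 47 also had the neutrophil list (described below) at 6.18, where the other 6 T0 horses lay between 3.77 and 4.31, and the T cell list at 0.85, the lowest of the 7. Within the 5 scan days that held both time points of the validation set, the IL22RA2 difference ranged from 5.19 to 8.71. The processing moved the size of this change. After background correction by normexp, which adds a fixed offset of 50 to every signal, followed by quantile normalisation (together called normexp here), it was 3.61 in the experimental and 3.16 in the validation set. With quantile normalisation alone it was 7.32 and 6.91, and with the deposited normalised values it was 3.73 and 3.26.

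**Figure D1:**
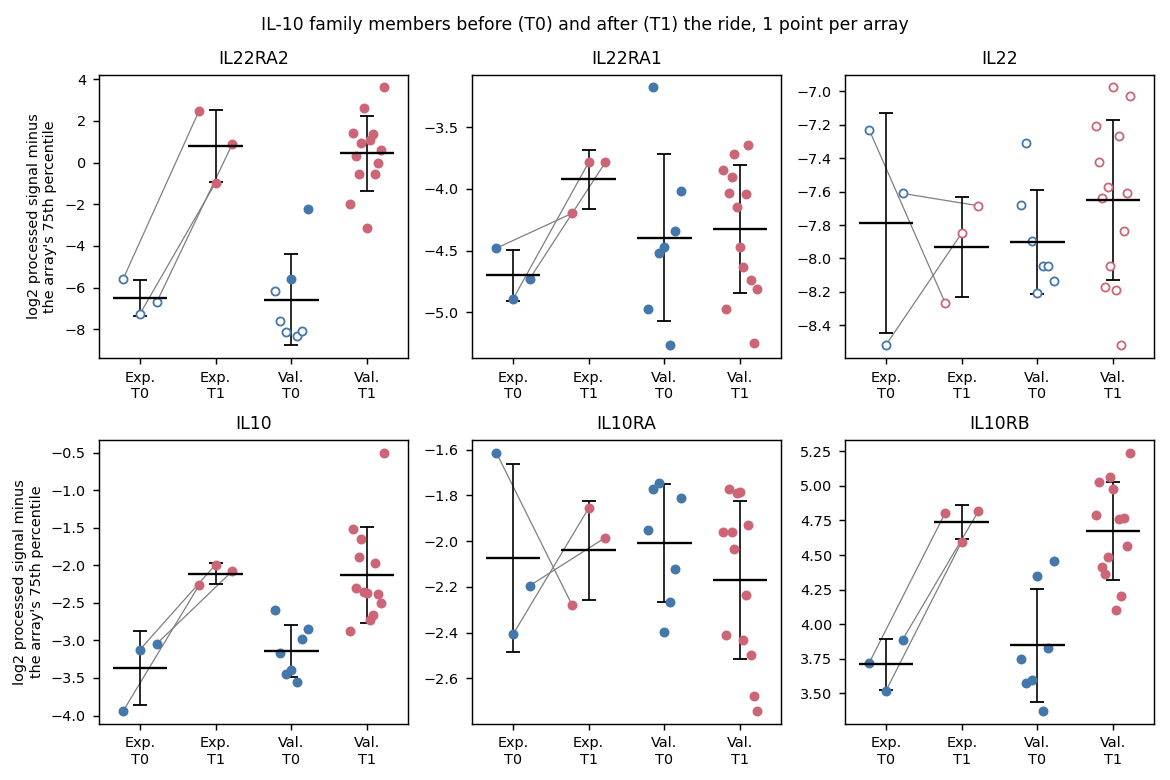
Level of each member (log2 processed signal minus the 75th percentile of the array) on every array, for the experimental (Exp.) and validation (Val.) sets at T0 (blue) and T1 (red). Filled points are well above background and open points are not, grey lines join the arrays of a horse, and bars give the mean ± SD. IL22RA2 sits between -8.31 and -2.22 at T0 and between -3.12 and 3.61 at T1, while IL22 has open points throughout.

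The membrane-bound IL-22 receptor chain IL22RA1 was well above background on all 26 arrays and changed far less than IL22RA2. In the experimental set it read -4.48, -4.89 and -4.73 at T0 and -4.20, -3.78 and -3.78 at T1 in horses 2, 32 and 41. The change was 0.78 ± 0.33 (log2, SE), with all 3 horses higher at T1 and no overlap between the time points. IL22RA2, IL10 and IL10RB were likewise without overlap in this set. The share of all genes that separate so with 3 horses was not analysed here. The validation horses ran from -5.27 (median -4.47) to -3.18 at T0 and from -5.25 (median -4.14) to -3.65 at T1. There the groups overlapped almost completely and the difference was 0.07 ± 0.26. Within scan days the validation difference went from -0.55 to 0.80. Each of these days held 1 or 2 T0 horses and 1 to 4 T1 horses, so the sign within a day rested on few animals. In the experimental set the change fell to 0.21 with normexp and 0.20 with the deposited values.

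IL22 itself gave no measurable signal. None of its 5 probes was well above background on any of the 26 arrays, and the brightest ran from -8.52 to -7.23 at T0 and from -8.52 to -6.98 at T1 over both sets. No fold is given for a gene at background in both groups.

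IL10, the cytokine, was well above background on all 26 arrays. In horses 2, 32 and 41 it read -3.94, -3.12 and -3.05 at T0 and -2.27, -1.99 and -2.08 at T1. The T0 and T1 arrays did not overlap and the change was 1.26 ± 0.33 (log2, SE), a 2.39-fold difference of the means. Among the validation horses IL10 ran from -3.55 (median -3.16) to -2.59 at T0 and from -2.88 (median -2.35) to -0.50 at T1. There 10 of the 13 T1 horses lay above every T0 horse, and the difference was 1.01 ± 0.25 or 2.02-fold. The highest T1 value belonged to horse 62, which also had the highest IL22RA2 and IL10RB levels of the 13. The 6 IL10 probes gave the same picture, with changes of 0.98 to 1.28 in the experimental and 0.92 to 1.07 in the validation set, the lowest in both from the same probe. These probes overlap and are readings of the same stretch rather than independent evidence. Normexp gave 0.72 and 0.63 for the 2 sets and the deposited values 0.75 and 0.66.

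The receptor chains of IL-10 differed from each other. IL10RB, the shared chain, read 3.72, 3.52 and 3.89 at T0 and 4.80, 4.60 and 4.82 at T1 in the experimental horses. The change was 1.03 ± 0.31 (log2, SE), or 2.04-fold, with no overlap between the time points. Among the validation horses it ran from 3.37 (median 3.75) to 4.46 at T0 and from 4.10 (median 4.76) to 5.24 at T1, a difference of 0.83 ± 0.18 or 1.77-fold. The T0 horses 18 (4.35) and 47 (4.46) were those that reached into the T1 range. Within scan days the validation difference lay between 0.62 and 1.60. The experimental change was 0.72 with quantile normalisation, 0.65 with normexp and 0.67 with the deposited values.

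IL10RA, the ligand-binding chain, showed no common direction. It read -1.61, -2.41 and -2.20 at T0 and -2.28, -1.86 and -1.98 at T1 in horses 2, 32 and 41, so that it was lower after the ride in horse 2 and higher in the other 2. The mean change was 0.03 ± 0.35. The validation horses spanned -2.40 (median -1.95) to -1.74 at T0 and -2.74 (median -2.03) to -1.77 at T1, a difference of -0.16 ± 0.16. Its sign in the experimental set depended on which horse was left out, with 0.38 without horse 2 and -0.23 without horse 32.

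In the fits over all genes with limma (17486 gene names in the experimental and 17403 in the validation set, Benjamini-Hochberg adjusted p under 0.05), 5 of the 6 measured members passed the filter on dim signals and IL22 did not. Of these 5, IL22RA2 and IL10 passed the threshold as higher at T1 in the experimental set, where 6.4% of all genes were called higher and 4.2% lower. IL22RA2, IL10 and IL10RB passed as higher at T1 in the validation set, where 20.3% of all genes were called higher and 23.9% lower. No member passed as lower. Since the members were picked with these contrasts in view, nothing is read from the counts. In the experimental set the count was 1 without horse 2 or without horse 32, and 3 without the pairing of the horses. Of the experimental calls over all genes, 60.4% were higher at T1, against 48.1% with normexp, 49.6% with quantile normalisation and 47.5% with the deposited values. None of the 5 members had T0 and T1 horses of the validation set without overlap, a separation that 2.21% of the genes tested there showed.

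The 2 sets were compared directly through the interaction of set and time in a fit of the 26 arrays that treated the horse as a random effect. The difference of the changes, validation minus experimental, was -0.29 ± 1.67 for IL22RA2 (log2, SE), -0.25 ± 0.50 for IL10, -0.19 ± 0.32 for IL10RA, -0.20 ± 0.34 for IL10RB and -0.70 ± 0.50 for IL22RA1. None of the members passed the threshold, and neither did any gene of the 19396 tested with limma (0%), where 159 had an unadjusted p under 0.05. The wide standard error for IL22RA2 limits what could be seen of a difference between the sets for that gene.

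Among the 13 validation horses at T1, the members differed widely in how much they varied. IL22RA2 spanned 6.73 log2 units, a 106-fold range, with an SD of 1.78. Only 12 of the 13452 genes that were well above background on all 13 arrays had a larger SD, and the median SD of those genes was 0.37. IL10 followed with an SD of 0.64 (percentile 85.3) and IL22RA1 with 0.52 (percentile 74.4). The IL-10 receptor chains were less variable than the median gene, with an SD of 0.35 for each (percentiles 43.7 for IL10RA and 44.9 for IL10RB).

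Whether horses with more of one member after the ride also had more of another was tested over the 13 validation T1 horses, in 30 relations between the 5 members and between each member and the neutrophil, monocyte, T cell and B cell lists. No relation passed after adjustment over the 30, and 4 had an unadjusted p under 0.05 in the two-sided permutation test. IL10RA and IL22RA1 had the highest correlation, with Pearson's r = 0.775 (permutation p = 0.00301, adjusted p = 0.0903, n = 13) and Spearman's rho = 0.643 (permutation p = 0.0204, adjusted p = 0.293). Without horses 4 and 55, the 2 farthest from the median of IL22RA1, r was 0.689, and among the 10 geldings it was 0.775. IL22RA2 and IL10 gave r = 0.513 (permutation p = 0.0765, adjusted p = 0.356) and rho = 0.33 (permutation p = 0.271, adjusted p = 0.508), and r fell to 0.065 without horses 4 and 62, so that the relation rested on those horses. No scan day held more than 4 of the 13 horses, too few for a value within a day. Horses 4, 55 and 62 were scanned on the same day and had the 3 lowest IL22RA1 levels (-4.97, -5.25 and -4.81), and horses 55 and 62 the lowest IL10RA levels. Without these 3 horses r was 0.55 for IL10RA and IL22RA1 (permutation p = 0.0986, adjusted p = 0.548, n = 10), with rho = 0.309, and 0.083 for IL22RA2 and IL10, so that these relations rested in part on that scan day.

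**Figure D2:**
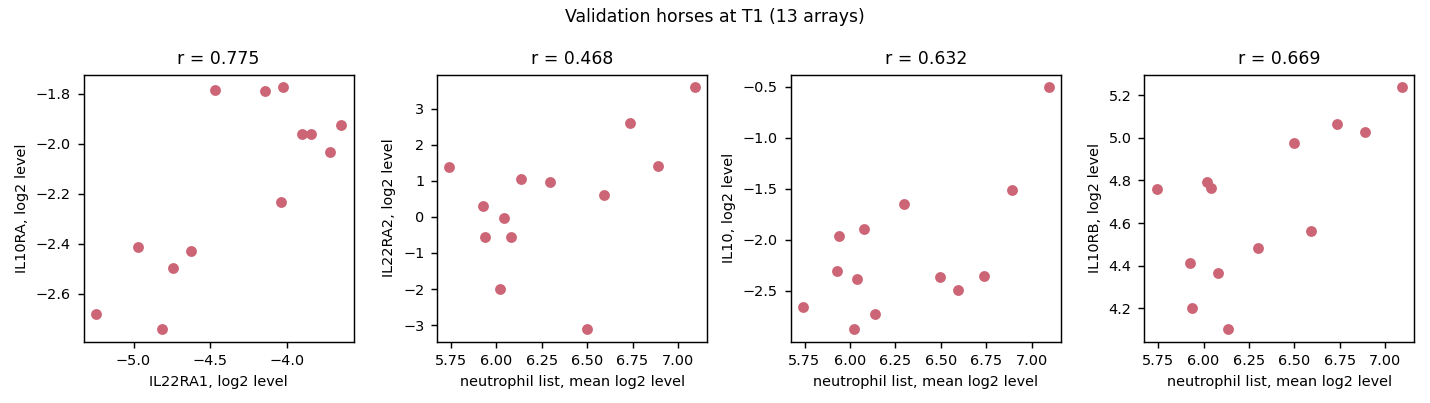
Log2 levels of members against each other or against the mean log2 level of the neutrophil list, 1 point for each of the 13 validation horses at T1, with Pearson's r above each panel. The IL10RA and IL22RA1 panel has r = 0.775, and the horse at the upper right of each neutrophil panel is horse 62.

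The neutrophil list held S100A8, S100A9, S100A12, CSF3R, CXCR2, MMP8 and MMP9, the listed genes that had a probe. Its mean log2 level lay between 3.29 and 5.48 at T0 and 6.18 and 6.55 at T1 in the experimental set, and between 3.77 and 6.18 at T0 and 5.74 and 7.09 at T1 in the validation set. Of its 7 genes, 6 rose in the validation set and none fell (limma, adjusted p under 0.05). The 8 T cell genes all fell there, and so did the 6 B cell genes, with list changes of -1.31 and -1.40. Of the 7 monocyte genes 3 rose and 2 fell. Among the T1 horses the neutrophil list had r = 0.632 with IL10 (permutation p = 0.0168, adjusted p = 0.168), with rho = 0.462 (permutation p = 0.114, adjusted p = 0.422). It had r = 0.669 with IL10RB (permutation p = 0.0141, adjusted p = 0.168), with rho = 0.593 (permutation p = 0.0373, adjusted p = 0.293). With IL22RA1 it had r = -0.606 (permutation p = 0.0303, adjusted p = 0.227), with rho = -0.621 (permutation p = 0.0267, adjusted p = 0.293). Leaving out horses 4 and 62 took r to 0.0892 for IL10, to 0.43 for IL10RB and to -0.435 for IL22RA1. For IL22RA2 and the neutrophil list r was 0.468 (permutation p = 0.109, adjusted p = 0.363) and rho 0.495 (permutation p = 0.091, adjusted p = 0.422), with r = 0.122 without those horses. Under normexp this r became 0.80, with an adjusted permutation p of 0.0297, the only relation of the 30 to pass under an alternative run. The same 3 horses of 1 scan day, 4, 55 and 62, had 3 of the 4 highest neutrophil list levels (6.89, 6.59 and 7.09). Without them r with the neutrophil list was 0.172 for IL10, 0.492 for IL10RB, -0.206 for IL22RA1 and 0.0807 for IL22RA2, none with an unadjusted permutation p under 0.05. The part of the cell mixture in the changes of the members was not tested.

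Few markers could be measured of the cell types known to make the IL-22 binding protein. Whether these cells took part in the IL22RA2 change was not tested. Of the 5 dendritic cell genes, ZBTB46 was well above background on no array and XCR1 on 1. The other 3 (FLT3, CLEC9A and CD1C) were well above background on all 26, and none of them passed the threshold in either set. Their validation changes were -0.03 ± 0.23, 0.50 ± 0.30 and -0.30 ± 0.41 (log2, SE). The dendritic cell list averages in ZBTB46 and XCR1. It lay between -3.96 and -3.08 at T0 and between -4.15 and -2.73 at T1 over both sets. Of the 2 eosinophil genes, the eosinophil peroxidase gene EPX was well above background on 1 array. CCR3, an eosinophil and basophil chemokine receptor, fell by 1.44 in the validation set (limma, adjusted p = 0.000194), and was the only eosinophil gene tested. Of the 3 basophil genes tested there, MS4A2 and FCER1A fell, by 4.54 and 3.74. HDC, measured on all 26 arrays, changed by 0.01 ± 0.21 (limma, adjusted p = 0.974). Which of these cells the CCR3 value reflects was not tested.

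**Figure D3:**
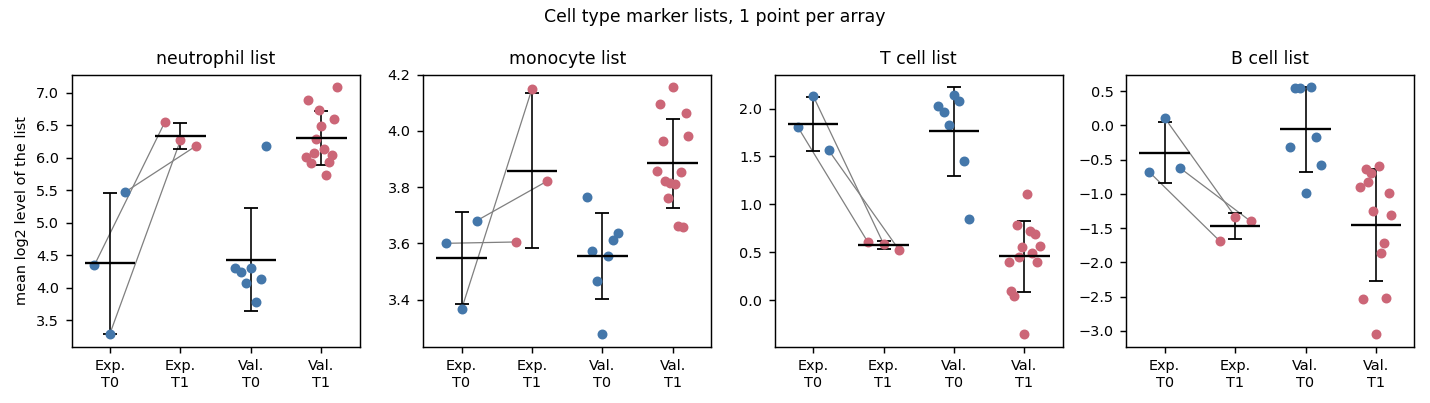
Mean log2 level of 4 cell type marker lists on every array, by set (Exp., experimental and Val., validation) and time point, with grey lines joining the arrays of a horse and bars giving the mean ± SD. The neutrophil list is higher at T1 and the T cell and B cell lists are lower, and validation horse 47 is the T0 point at 6.18 in the neutrophil panel.

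The remaining ligands and receptors of the family were mostly at background. IL24, next to IL10, IL19 and IL20 in the reference annotation, had its brightest probe well above background on 2 of 7 T0 and 2 of 13 T1 validation arrays. A neighbouring probe shifted by a few bases was the only IL24 probe above background in horse 1 at T1, with a level of -1.31 there. IL20 was well above background on 1 array of 26. IFNL3, a type III interferon gene listed on the array as IL28B, was measured on all 26 arrays, with changes of 0.62 ± 0.39 (adjusted p = 0.31) and 0.30 ± 0.22 (adjusted p = 0.302) in the experimental and validation sets (limma). IL20RA, a receptor chain for IL-19, IL-20 and IL-24, was not well above background on any of the 10 T0 arrays. It was so on 4 of 13 validation T1 arrays and 1 of 3 experimental T1 arrays, and reached -1.49 in horse 17. No fold is given for it, because most of the T1 arrays were not well above background either. The brightest IL20RB probe was well above background on 2 arrays and the interferon-lambda receptor IFNLR1 on 4.

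IL20RA is also the neighbour of IL22RA2 in the horse reference annotation, and the genes on either side of each member were examined after the members' values were known. IFNGR1, a chain of the interferon-gamma receptor that lies on the other side of IL22RA2, was measured on all 26 arrays. It changed by 1.21 ± 0.42 in the experimental set (adjusted p = 0.0939) and rose by 1.35 ± 0.48 in the validation set (limma, adjusted p = 0.0259). MDM1 and RAP1B, the closest genes on one side of the silent IL22, rose by 2.27 ± 0.31 (adjusted p = 1.47e-05) and 1.33 ± 0.16 (adjusted p = 5.8e-06) in the validation set (limma). IFNG, on the other side of IL22, was not well above background on any array. MAPKAPK2, a stress kinase that lies near IL10, rose by 0.45 ± 0.16 in the validation set (limma, adjusted p = 0.0314). FXYD6, near IL10RA, fell by 0.93 ± 0.21 (adjusted p = 0.00111) and the splicing factor gene SRSF10, near IL22RA1, fell by 0.49 ± 0.12 (adjusted p = 0.00207) in that set. SLC35D3, near IL22RA2, did not pass there, with a change of 0.68 ± 0.30 (limma, adjusted p = 0.0696). Neither did TMPRSS13, near IL10RA, at 0.85 ± 0.39 (limma, adjusted p = 0.0812). The neighbours tested there thus included genes that rose, genes that fell and genes that did not pass. Over all genes tested in that set 20.3% rose and 23.9% fell, so nothing is read from these calls.

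The pathway list held 48 further genes of IL-10 and IL-22 signalling, of which 43 had a probe and 36 passed the filter in each set. In the experimental set 12 rose and 1 fell, where 6.4% of all genes rose and 4.2% fell. The median change was 0.54 against 0.03 over all genes. The validation set had 18 that rose and 5 that fell, where 20.3% of all genes rose and 23.9% fell. The median there was 0.51 against -0.07 over all genes. The genes were listed with earlier results of these data known, so nothing is read from these counts. The 12 that rose and the 1 that fell in the experimental set also did so in the validation set. The experimental count of 13 came down to 4 without horse 2 and to 6 without horse 32. The validation count of 23 stayed between 22 and 26 under every alternative run.

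**Figure D4:**
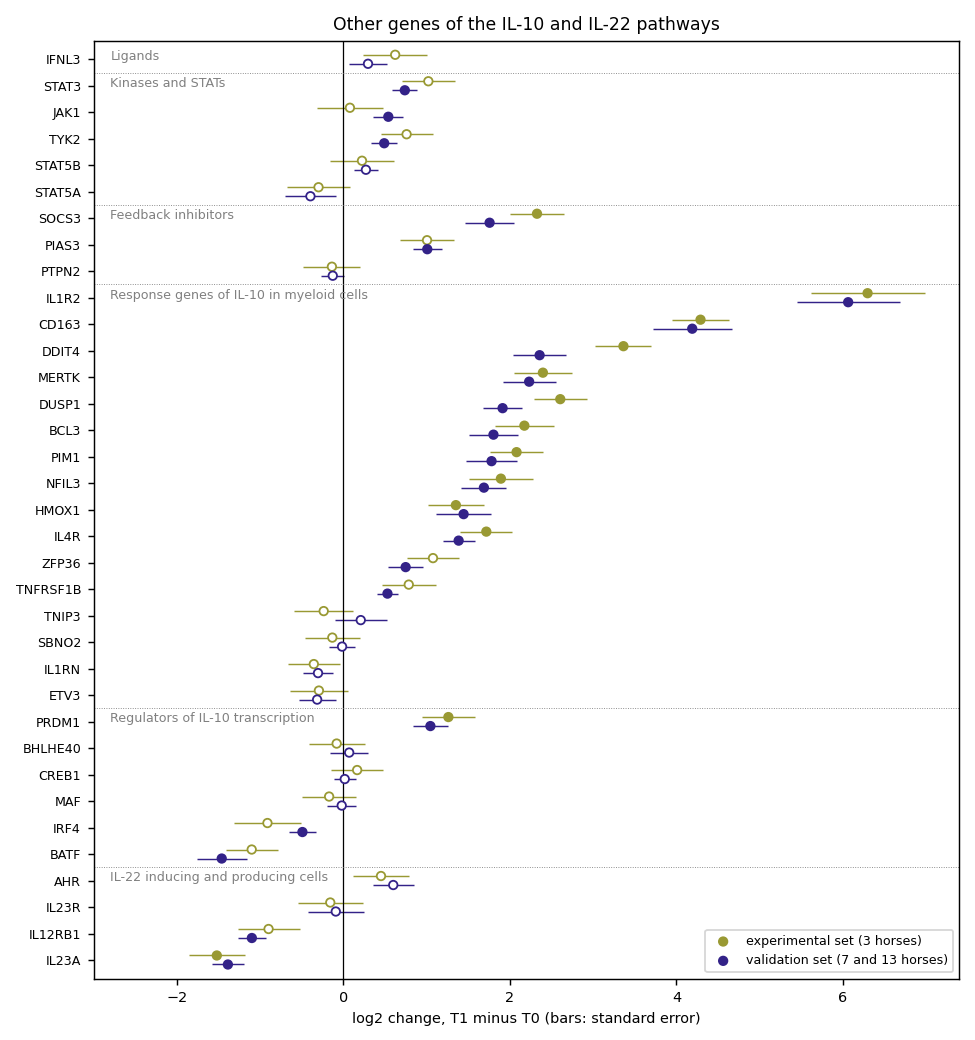
Change between T0 and T1 (log2, T1 minus T0) of tested genes of the pathway list, grouped by role, in the experimental set (olive) and the validation set (dark blue), with bars for the standard error. Filled points passed the adjusted p threshold of 0.05 in limma. IL1R2 and CD163 lie farthest to the right and IL23A and BATF farthest to the left in the validation set.

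The largest group comprised genes that IL-10 induces in myeloid cells, although most of them also respond to other signals such as glucocorticoids. Of its 16 measured members 10 rose in the experimental set, where 6.4% of all genes rose and 4.2% fell, and 12 rose in the validation set, where 20.3% of all genes rose and 23.9% fell. None of the 16 fell. The list was chosen with earlier results of these data known, so the counts are no independent evidence of a direction. IL1R2, the decoy receptor for interleukin-1, ran from -0.93 to 4.26 at T0 and from 6.58 to 8.19 at T1 in the experimental horses. Its change was 6.30 ± 0.69 (adjusted p = 0.00178) there and 6.06 ± 0.62 (adjusted p = 1.34e-06) in the validation set (limma). Experimental horses 2, 32 and 41 changed by 7.70, 7.51 and 3.69, a wider spread than the moderated SE conveys. CD163, the haemoglobin scavenger receptor of monocytes and macrophages, ran from -1.76 to 2.65 at T0 and from 2.81 to 5.32 at T1 in the validation horses. Its change there was 4.19 ± 0.47. Of the 36 pathway genes tested in that set, only CD163 had T0 and T1 horses without overlap. Over all genes tested there the share was 2.21%, so nothing is read from this count. DDIT4, an inhibitor of mTOR signalling, rose by 3.36 ± 0.34 in the experimental and 2.36 ± 0.32 in the validation set.

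The engulfment receptor kinase MERTK, the MAP kinase phosphatase DUSP1, the NF-κB cofactor BCL3, the kinase PIM1, the transcription factor NFIL3 and the haem-degrading enzyme HMOX1 rose in both sets. Their validation changes went from 1.44 (HMOX1) to 2.23 (MERTK). The experimental call of MERTK was lost without horse 2, those of BCL3, PIM1 and NFIL3 without horse 2 or without horse 32, and that of HMOX1 when any 1 of the 3 was left out. IL4R rose in both sets too, by 1.72 ± 0.31 and 1.38 ± 0.19. SBNO2, ETV3, IL1RN and TNIP3 did not pass the threshold in either set, with validation changes between -0.32 and 0.21. IL1RN, the secreted antagonist of interleukin-1 and a classical IL-10 response gene, changed by -0.36 ± 0.31 and -0.31 ± 0.18. IL4R and these 4 genes were named after their values were seen.

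Of the kinases and STATs, none of 6 passed in the experimental set. JAK1, TYK2 and STAT3, the signalling chain of the IL-10 receptor, rose in the validation set by 0.54 ± 0.18, 0.49 ± 0.16 and 0.74 ± 0.15 (limma, adjusted p = 0.0187, 0.0159 and 0.000533). STAT5A and STAT5B did not pass. Of the feedback inhibitors SOCS3, the STAT3-induced inhibitor of cytokine signalling, ran from 1.86 to 2.24 at T0 and 4.16 to 4.51 at T1 in the experimental horses. It rose by 2.33 ± 0.33 there and by 1.76 ± 0.29 in the validation set, and its experimental call was lost without horse 2. PIAS3, an inhibitor of STAT3, rose by 1.01 ± 0.17 in the validation set. PTPN2 passed in neither. JAK1, TYK2, STAT3 and PIAS3 were likewise named after their values were seen.

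Regulators of IL10 transcription moved in both directions. PRDM1, which encodes Blimp-1, rose by 1.26 ± 0.32 and 1.04 ± 0.21 in the experimental and validation sets, although its name too was added with the values in view. BATF, an AP-1 family factor of T and B cells, changed by -1.10 ± 0.31 in the experimental set (adjusted p = 0.0551) and fell by 1.46 ± 0.30 in the validation set (adjusted p = 0.000557, limma). It passed in the experimental set with quantile normalisation, normexp or the deposited values. IRF4 fell by 0.49 ± 0.16 in the validation set. MAF, BHLHE40 and CREB1 passed in neither set.

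Of the 4 measured genes of IL-22 induction none rose, while 1 fell in the experimental and 2 in the validation set, where 4.2% and 23.9% of all genes fell. IL23A, the specific subunit of the IL-22-inducing cytokine IL-23, fell by 1.52 ± 0.34 in the experimental and by 1.39 ± 0.19 in the validation set, and the experimental call was lost without horse 2 or without horse 32. Its validation horses ran from -2.05 to -0.22 at T0 and from -2.90 to -1.95 at T1. IL12RB1, a receptor chain of IL-23, fell by 1.10 ± 0.17 in the validation set, and was named after its values were seen. AHR and IL23R did not pass in either set. IL12B was not well above background on any validation array, and was so on 1 experimental array, at -3.70 in horse 41 at T1. The T cell and B cell lists fell at T1 as given above, and their part in these values was not tested.

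The genes most like IL22RA2 over the 26 arrays, among 11657 gene names with a symbol, were PBXIP1 (Pearson's r = 0.957), SEMA3E (0.953), CD44 (0.95), CNOT2 (0.949) and GADD45A (0.948). These values are descriptive, since the arrays share the T0 and T1 split. Within the 13 validation T1 horses they were 0.772, 0.798, 0.683, 0.734 and 0.562. The CD44 value came from a probe that the study's additional files assign to CD44, whereas the probes that carry that name on the array had r = 0.869 and 0.679. The genes most like IL10 were RAB13 (0.866), KMO (0.857), YIPF6 (0.85), CGA (0.849) and IRAK2 (0.847), with 0.816, 0.719, 0.722, 0.72 and 0.652 within the T1 horses. RAB13 had a second entry on the array, whose probe had r = 0.688.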

How the data were processed

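Each array was an Agilent custom equine design scanned for Cy3. Per the file headers, the authors extracted spots with Agilent Feature Extraction, and the deposited scanner files hold spot intensity (processed, mean and background signals) with detection flags, which are yes or no values. The authors also deposited log2 values for the series. These rank spots as the median signal minus local background does (Spearman 1.0 on every array) and have medians of 7.088 to 7.101. Their normalisation is not given in the sources used here, and the submitters' notes name limma.

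Here log2 of the processed signal was centred on the 75th percentile of each array (8.702 to 9.735), 386 outlier spots were dropped, replicate spots were averaged and the brightest probe represented a gene. Genes were kept if well above background on 3 of 6 (experimental), 7 of 20 (validation) or 3 of 26 arrays (interaction), and tested with limma 3.58.1 in R 4.3.3 with Benjamini-Hochberg adjustment. The experimental fit held the horse as a block. The pairing comes from the same animals being sampled at both times, and their deviations from the group means correlated at -0.00866, 0.213 and 0.191 in horses 2, 32 and 41. Between different horses these correlations ran from -0.354 to 0.186, the highest for horse 2 at T0 with horse 41 at T1. In the fit of the 26 arrays the consensus correlation within horses was -0.07. Correlations used 100000 permutations. Scripts were tested on simulated data.

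Depth does not apply to arrays, and the number of horses limits the precision. Between 60.4% and 75.4% of probes per array were well above background. No member was saturated, although the array of validation horse 34, read in a single scanner pass, held 431 saturated spots. Arrays lay on 18 slides and 8 scan days.

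Symbols came from the array, the RefSeq table of the current horse assembly or the study's additional files. The pathway and marker lists and the members were chosen with earlier results of these data known. Named genes were all members, the 12 pathway genes with the largest validation change among those past the threshold, all ligands and receptors, and the 5 genes most like IL22RA2 and IL10. Results for some listed genes are not reported here, although the counts over the list include them. Alternatives were normexp, quantile normalisation, the deposited values, the mean of a gene's probes, other filters, leaving out horses, other blocks and sex as a covariate.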

Additional observations from a re-analysis of the deposited data

Results flagged for a closer look

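Among the 7 validation horses at T0, horse 47 stood apart from the other 6 in the mean level of the neutrophil list, at 6.18 against 3.77 to 4.31 (Dixon's ratio 0.778, critical value 0.568). This was the only outlier in 10 such groups of values (the 6 members and the neutrophil, monocyte, T cell and B cell lists), and chance flags about 1 group in 20. The IL22RA2 level of the same horse, -2.22, gave a ratio of 0.554, just under that value.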

How the results depend on the processing

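The validation set had 6682 to 8316 genes past the threshold over the alternatives run, against 7690, and its pathway count stayed between 22 and 26. The experimental set, with 3 horses, moved more: 1854 genes became 65 without a filter, 2918 with a filter on every array and 2988 with all 26 arrays in 1 fit, and 235 to 2692 when a horse was left out. Its pathway count of 13 became 2 without a filter and 4 to 12 when a horse was left out. The cause of these shifts was not tested. Without the replicate block, that is ignoring the pairing of the horses, 1800 genes, 13 pathway genes and 3 members passed, the last against 2 with the block. For the relations among T1 horses, 0 of 30 passed as analysed 1 with normexp, and 0 without the 3 horses of scan day 2, an alternative chosen after seeing the data. The interaction gave 0 genes under each of 12 alternatives. No called change of a member turned its direction under any alternative or within any scan day. Over all alternatives the change of IL22RA2 ranged from 3.61 to 9.74 in the experimental set and from 3.16 to 8.71 in the validation set, and the lower ends came from normexp. With the filter on every array IL22RA2 was left out of the fits and gave no value. Dim signals limit IL22, IL20, IL20RA and IL20RB, for which no change could be measured.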
